A study of Mus musculus with 8 samples.

Results

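The 259 genes described here are those that the authors' gene count table types as TEC (227 genes) or sense_intronic (32 genes), out of 13588 genes listed. TEC is an annotation class for regions where clusters of unspliced cDNA with signs of polyadenylation have been seen but whose transcript still awaits an experimental test, and most of its entries are single exons with a numbered name. A sense intronic transcript is a noncoding RNA that lies inside an intron of a coding gene, on that gene's strand, without sharing its exons. Introns are normally cut out while the gene is being transcribed and are quickly degraded in the nucleus, so RNA from within them is scarce in most cells. No function is known for most of these genes, and the text therefore says what their host genes do, a host being the protein-coding gene whose intron holds them.

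The series asked how mRNA processing depends on Ybx1, an RNA-binding protein with a cold shock domain that takes part in splicing. BaF3 cells, a mouse line derived from pro-B cells, were used in all 8 libraries, and all carried Jak2 V617F, the form of the kinase that is active without a ligand. Of these, 4 came from cells with a control short hairpin that has no target (shNT), 2 from cells with a first hairpin aimed at Ybx1 (sh1Ybx1) and 2 from cells with a second (sh2Ybx1), and the labels name no other difference between them. Polyadenylated RNA was selected before sequencing. The labels do not say whether libraries of a group came from separate cultures or clones, and the spread behind the p-values is that between these libraries, which may be technical.

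The last 50 bases of 7 of these transcripts show what such RNA looks like. They are the TEC gene with the highest mean level among those that rose, followed by the 4 TEC and 2 sense intronic genes that rose most among those with a mean of at least 1 CPM (counts scaled to the library's size). Sequences are those of GENCODE release 21 of the mouse annotation (GRCm38), 5′ to 3′ on the transcript's strand, and capitals mark AATAAA or ATTAAA, the hexamers that usually direct cleavage and polyadenylation.
A930004J17Rik: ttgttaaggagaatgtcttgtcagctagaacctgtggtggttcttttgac
Gm38020: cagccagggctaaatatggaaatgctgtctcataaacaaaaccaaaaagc
Gm42572: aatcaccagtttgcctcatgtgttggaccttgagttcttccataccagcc
Gm37127: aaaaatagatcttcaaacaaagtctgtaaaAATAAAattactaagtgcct
Gm43088: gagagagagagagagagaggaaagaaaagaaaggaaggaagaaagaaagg
D430018E03Rik: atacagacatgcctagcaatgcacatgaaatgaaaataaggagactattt
Gm42659: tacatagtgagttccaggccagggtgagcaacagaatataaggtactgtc
Gm37127 alone of these 7 holds a hexamer in the window, and Gm43088 ends in simple repeats. Over the 257 genes found in that annotation, 90 (35.0%) had AATAAA or ATTAAA in the last 50 bases of their longest transcript, searched on the transcript's strand only, against 66.7% of all listed genes, 73.5% of protein-coding genes, 53.3% of lincRNA genes and 50.8% of antisense genes. A run of 10 A within the last 500 bases was present in 6.05% of them and in 5.79% of all listed genes. Median GC content was 43.5% against 49.7% over all listed genes.

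By position, 132 of the 257 genes (102 TEC and 30 sense intronic) lay in introns of a protein-coding gene on the same strand. Of these, 126 shared no exon base with any other gene. A further 46 lay at least partly inside a protein-coding gene but on the opposite strand, of which 33 overlapped an exon of another gene. Another 75 lay outside protein-coding genes, 15 of them within 5 kb past the end of the nearest coding gene upstream on the same strand. Of the remaining 4, all on the strand of a coding gene, 3 touched a coding exon and 1 was only partly inside that gene. Single exons made up 230 of the 257 genes, and their spans ran from 212 to 17900 bases with a median of 2228. Chromosomes 1, 3 and 5 held 162 of them. A single intron held 131 of the 132 intronic genes whole, and for 29 of them it was a first intron. The median length of that intron was 9590 bases (1592 to 1244595), with a shared intron counted once per gene.

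Total counts ran from 22779437 to 37549926 per library. Ybx1 fell from 1675 ± 65.4 CPM in shNT to 167 ± 39.2 CPM in the knockdown libraries (SD, n = 4 each; two-sided exact permutation test, p = 0.0286, the smallest these group sizes allow). Of 12 pro-B markers 3 were in the count table, of which Ptprc rose (158 to 303 CPM, log2 fold change 0.86, adjusted p = 0.0154) and Cd79a and Cd79b were not called. Of the others Pax5 and Vpreb1 reached at most 2.21 and 3.15 TPM, while Ebf1, Rag1, Rag2 and Il7r were among those listed at 0 TPM in every library. The shNT replicate 4 library stood apart from the other shNT libraries in several measures given below. Of the markers of other cell types, 4 of 8 tested myeloid genes rose (summed level 239.6 to 530.1 CPM in shNT and 267.9 to 894.0 CPM in the knockdown libraries, with Elane and Ly6c2 listed at 0 TPM), as did 3 of 3 mast cell genes (1.06 to 6.14 and 12.5 to 42.9 CPM, with Mcpt8 listed at 0 and Fcer1a and Ms4a2 at up to 0.98 and 0.43 TPM). The fibroblast marker tested rose (1.81 to 5.28 and 2.88 to 101 CPM, with Col1a1, Col1a2, Col3a1 and Pdgfra listed at 0), and the T and NK cell marker tested fell (3.02 to 10.6 and 0.383 to 8.29 CPM, with Cd4, Cd8a and Klrb1c listed at 0 and Cd3e and Cd3g at up to 0.56 and 2.20 TPM). Of 7 genes read as signs of RNA quality, 6 rose (5754 to 21012 and 20993 to 35652 CPM). In the same comparison, of both hairpins with shNT, 14.8% of all genes tested were called higher and 14.2% lower. The part of these lists in the results was not tested. In bulk RNA, fewer cells expressing a transcript and less of it per cell cannot be told apart.

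The summed level of the TEC genes was 295, 271, 254 and 365 CPM in replicates 1 to 4 of shNT, 548 and 452 CPM with sh1Ybx1, and 532 and 476 CPM with sh2Ybx1. Each knockdown library lay above each shNT library, and shNT replicate 4 was the highest of the controls. The means were 296 ± 49.0 and 502 ± 45.3 CPM (SD, n = 4 each), a ratio of 1.69, which was 1.80 without shNT replicate 4 and 1.43 on the sums of the authors' TPM (length-scaled estimates).
The sense intronic genes summed to 69.0, 63.5, 53.5 and 96.9 CPM in shNT, 126 and 110 CPM with sh1Ybx1, and 149 and 131 CPM with sh2Ybx1. Their groups did not overlap either, with means of 70.7 ± 18.6 and 129 ± 15.8 CPM. Together the 259 genes took 0.0309% to 0.0392% of the counts of the shNT libraries and 0.0580% to 0.0716% of those of the knockdown libraries. Malat1 and mitochondrial RNA were also higher in the knockdown libraries. Malat1, a long RNA kept in the nucleus, was at 197, 174, 127 and 703 CPM in replicates 1 to 4 of shNT and between 1024 and 1564 CPM in the knockdown libraries. The share of counts from mitochondrial genes was 1.45% ± 0.60 in shNT and 3.21% ± 0.80 in the knockdown libraries. Like the TEC and sense intronic sums, Malat1 was highest among the controls in shNT replicate 4. The part of these measures in the results was not tested.

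**Figure D1:**
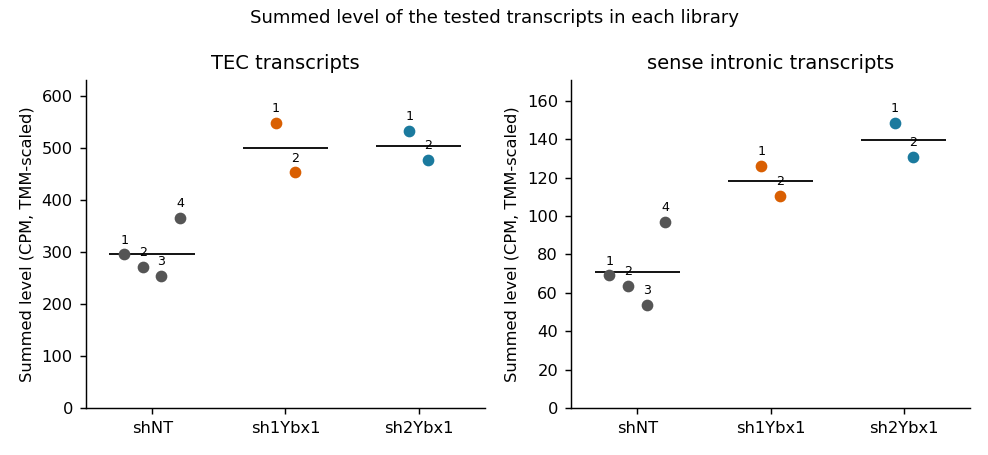
Summed level (y axis, CPM after TMM scaling) of the tested TEC genes (left) and sense intronic genes (right) in each library, by hairpin (x axis). Points are libraries numbered by replicate and bars are group means; TEC sums lie between 254 and 365 CPM in shNT and between 452 and 548 CPM in the knockdown libraries.

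Set against shNT, both hairpins together show which of these transcripts differ when Ybx1 is lowered. Of 258 genes tested, 143 rose and 4 fell (edgeR quasi-likelihood test, adjusted p under 0.05), or 122 and 3 of 226 TEC genes and 21 and 1 of 32 sense intronic genes. Over all 13552 genes tested, 14.8% were called higher and 14.2% lower. The median log2 fold change was 1.20 over the 258 genes and -0.004 over all genes. Among the 111 genes not called, 78 had a positive value. All 4 knockdown libraries lay above all 4 shNT libraries for 149 of the genes and below them for 3, while 16.6% of all genes lay above and 15.0% below. Among the 143 genes, 131 rose at least 2-fold. The filter before testing keeps a gene that has enough counts in the libraries of 1 group only. A rare gene can therefore be tested through the group where it is high, which favours genes that differ. In the third of the 258 genes with the highest mean level, 48 of 86 rose and 2 fell, with a median of 0.93. Most of the 258 were rare transcripts, with a median mean level of 0.93 CPM, a median of 23 counts per library, and 140 genes under 1 CPM, and the 10 most abundant genes held 30.4% of the summed level. The number called higher moved by over 1.5 times without sh1Ybx1 replicate 1 (53 genes), sh2Ybx1 replicate 1 (60 genes) or sh2Ybx1 replicate 2 (85 genes), while it was 166 without shNT replicate 4. With limma on log2(TPM + 1) 9 genes were called higher, and over all genes 156 of 13512, where edgeR called 2001 of 13552. The number called higher over all genes also fell without each of these knockdown libraries and rose without shNT replicate 4.

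The medians differed between positions, and positions were not tested against each other. Of the 132 genes in introns on the host's strand, 96 rose and 2 fell, with a median log2 fold change of 1.43. In the opposite-strand group 18 of 46 rose and the other 28 were not called, with a median of 0.77. Whether counting used strand is not given, so reads of this group and of the coding genes opposite may not be told apart. Outside protein-coding genes 26 of 74 rose and 2 fell, with a median of 0.68, and the 15 genes within 5 kb past a coding gene included 4 that rose and 11 that were not called. First introns held 29 of the intronic genes, of which 20 rose, and later introns 102, of which 75 rose. Genes with a polyadenylation hexamer in the last 50 bases rose in 41 of 90 cases (median 0.77) and those without in 101 of 166 (median 1.29). Among 11283 protein-coding genes 1318 rose and 1766 fell, with a median of -0.06. Some other noncoding classes rose too, so the rise was not particular to these genes. Of 85 snoRNA genes 54 rose (median 1.16) and of 399 antisense genes 130 (0.69). Of 219 processed transcript genes 76 rose (0.50) and of 403 lincRNA genes 113 (0.47). In the same order 0, 10, 11 and 15 fell. Processed pseudogenes did not share the rise: of 635, 95 rose and 106 fell (median 0.04). The intronic count was 108 without shNT replicate 4, and it was 33, 42 and 57 without sh1Ybx1 replicate 1, sh2Ybx1 replicate 1 and sh2Ybx1 replicate 2. Without the same libraries the opposite-strand count was 7, 7 and 10 and the count outside coding genes 12, 11 and 16, and the latter was 17 without sh1Ybx1 replicate 2.

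**Figure D2:**
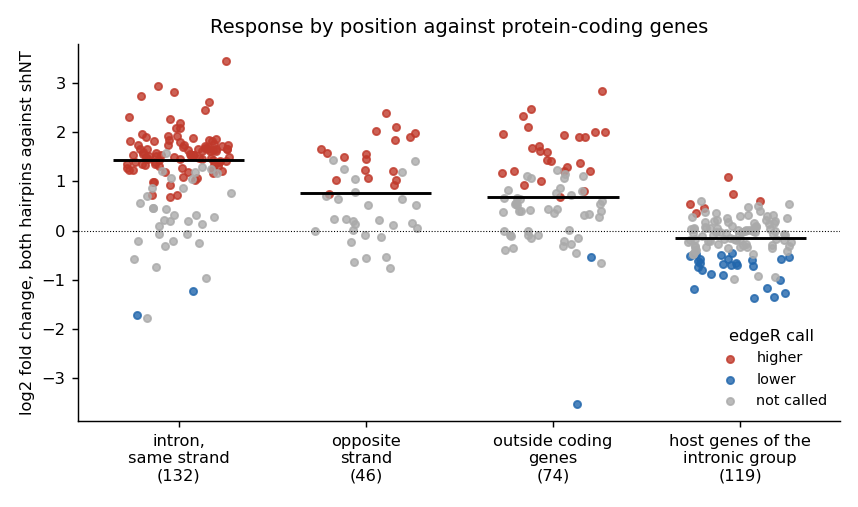
Log2 fold change of both hairpins against shNT (y axis) of the TEC and sense intronic genes, grouped by position against protein-coding genes (x axis, number of genes in brackets), and of the hosts of the intronic group. Points are genes coloured by their edgeR call, with random horizontal spread, and bars are medians: 1.43 in introns, 0.77 on the opposite strand, 0.68 outside coding genes and -0.16 for the hosts.

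In most pairs of an intronic gene and its host the intronic gene had the higher log2 fold change. Over 129 pairs in which both were tested, the median log2 fold change was 1.44 for the intronic gene and, over the 119 different hosts, -0.16 for the host. The intronic value was above the host's in 121 pairs and below it in 8, with a median difference of 1.52 (from -1.23 to 3.40). In 67 pairs the intronic gene rose and the host was not called, in 21 it rose and the host fell, and in 7 both rose. Of the 119 hosts, 6 rose, 26 fell and 87 were not called, where 14.8% of all genes rose, 14.2% fell and 9629 of 13552 were not called. Across the pairs, which share their libraries and partly their hosts, Pearson's r of both values was 0.25 and Spearman's rho 0.19, as a description.
The summed CPM of the intronic genes per 1000 CPM of their hosts was 12, 11.4, 8.36 and 14.7 in replicates 1 to 4 of shNT, 32.5 and 25.3 with sh1Ybx1, and 35.2 and 31.0 with sh2Ybx1. The lowest knockdown library was above the highest control. Per base of exon, the median intronic gene was at 3.21% of its host's level in shNT and at 9.90% in the knockdown libraries. Reads from an unspliced precursor of the host that fall in the intronic gene are counted for that gene, so its own transcript and retained host intron cannot be told apart in these counts.

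**Figure D3:**
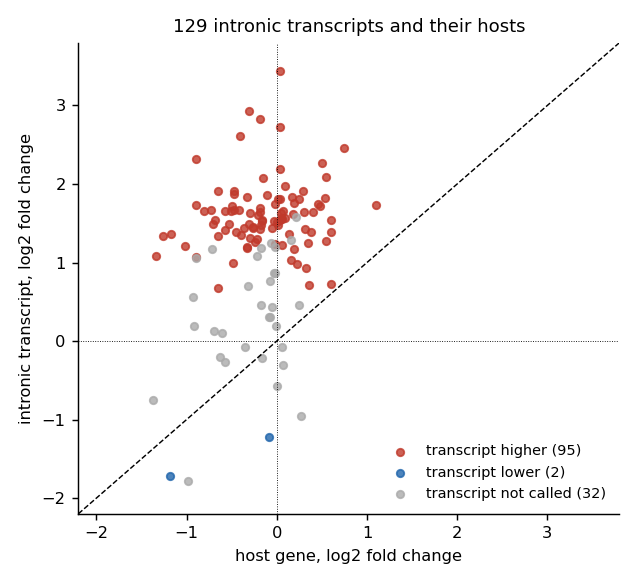
Log2 fold change of both hairpins against shNT for 129 intronic TEC and sense intronic genes (y axis) against that of the host gene (x axis), coloured by the edgeR call of the intronic gene. The dashed line marks equal values; 121 of the 129 points lie above it.

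Several hosts held more than 1 of these genes. There were 9 such hosts with 19 intronic genes, of which 16 rose and 3 were not called by the edgeR test, while 2 of the hosts fell and 1 rose. They are named for the shared host, a choice made after the values were seen. Nedd4, a ubiquitin ligase, held 3 TEC genes and itself fell from 1083 to 584 CPM (log2 fold change -0.89, SE 0.13, adjusted p = 0.00385). Its Gm36936, in intron 14, was at 3.30, 3.27, 1.83 and 4.35 CPM in shNT, 13 and 8.57 CPM with sh1Ybx1, and 10.8 and 9.94 CPM with sh2Ybx1, without overlap of the groups, and rose by 1.74 (adjusted p = 0.00479). In its intron 6, Gm7265 rose by 2.31 and A530064N14Rik had a value of 1.06 (adjusted p = 0.0879). Tcf12, an E protein transcription factor of lymphoid and other cells, fell by 0.65 on the log2 scale while A430027C01Rik in intron 4 rose by 1.34 and Gm38057 in intron 19 by 1.91. Cers6, which makes ceramide, had a value of 0.04 (adjusted p = 0.903) around Gm38377 and Gm37666 in its intron 4, both called higher. Their reads in shNT were few: Gm38377 had 4, 10, 4 and 6 counts there and 43, 31, 27 and 30 counts in the knockdown libraries, and Gm37666 had 2, 2, 1 and 1 counts against 15, 7, 17 and 19. Ptbp2, a splicing repressor related to the polypyrimidine tract binding protein, was the shared host that rose (0.61, SE 0.17), and its Gm42664 and Gm43300 rose by 1.55 and 1.38.

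The best expressed of the genes differed in their response. Gm42427, a single-exon TEC gene on chromosome 5 (44137980 to 44143271, plus strand), had the highest mean level, at 42.4, 36.0, 40.3 and 37.7 CPM in shNT, 39.5 and 39.9 CPM with sh1Ybx1, and 36.7 and 32.0 CPM with sh2Ybx1. Its groups overlapped, and the log2 fold change was -0.08 (SE 0.11, adjusted p = 0.598). The sense intronic gene 1110028F11Rik lies in intron 2 of Rnf43, which encodes a membrane ubiquitin ligase that lowers Wnt receptors (chromosome 11, 87701396 to 87705331, plus strand). It was at 22.9, 19.6, 16.8 and 28.4 CPM in shNT, 34 and 31.8 CPM with sh1Ybx1, and 41.9 and 37.1 CPM with sh2Ybx1. All knockdown libraries were above the controls (log2 fold change 0.72, SE 0.17, adjusted p = 0.0176). The call was lost when any 1 of the 4 knockdown libraries was left out (0.67 to 0.74). Rnf43 itself was at 5.41 ± 2.04 and 7.12 ± 1.90 CPM and was not called (0.36, edgeR adjusted p = 0.330). Per base of exon, 1110028F11Rik was at 2722% of its host's level in shNT and 3417% in the knockdown libraries. Gm17491, in intron 1 of the phosphate transporter gene Slc20a2, rose from 10.6 ± 3.09 to 21.4 ± 4.74 CPM (SD, n = 4 each; 1.00, SE 0.22, adjusted p = 0.0124). That call was lost without replicate 1 of either Ybx1 hairpin (0.90 to 0.96). Slc20a2 was not called (-0.48, edgeR adjusted p = 0.146). Per base of exon, Gm17491 was at 86.5% of the level of Slc20a2 in shNT and 242% in the knockdown libraries.
A930004J17Rik, whose end is printed above, lies in intron 1 of Srsf4, a gene of the SR family of splicing factors (chromosome 4, 131878628 to 131883237, plus strand). It was at 5.11, 9.19, 5.73 and 7.42 CPM in shNT, 19.7 and 15.3 CPM with sh1Ybx1, and 19.4 and 19.7 CPM with sh2Ybx1. The groups were well apart, and the gene rose by 1.43 (SE 0.21, adjusted p = 0.00382) while Srsf4 itself had a value of -0.18 (adjusted p = 0.380). Per base of exon its level was 14% of that of Srsf4 in shNT and 42.8% in the knockdown libraries. The sense intronic gene Gm29170, in intron 1 of the proteasomal deubiquitinase gene Uchl5, overlapped between groups at 9.33 ± 1.46 and 10.6 ± 0.92 CPM (adjusted p = 0.416).
Gm42547 and Gm42549 are neighbouring TEC genes past the end of the zinc finger gene Zfp800 on chromosome 6 (28211008 to 28214805 and 28219167 to 28226170, minus strand). The farther one, Gm42547, was at 9.12 ± 3.34 CPM in shNT and 11.7 ± 0.44 CPM in the knockdown libraries with overlapping groups (0.35, SE 0.25, adjusted p = 0.323). Gm42549 was at 1.67, 2.60, 1.19 and 1.04 CPM in shNT, 5.45 and 4.97 CPM with sh1Ybx1, and 7.55 and 6.92 CPM with sh2Ybx1, and rose by 1.90 (SE 0.30, adjusted p = 0.00465). Whether the pair differ in their response was not tested.

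Of the genes with a mean of at least 1 CPM, Gm38020 rose most. It is a TEC gene on chromosome X (103576426 to 103581101, minus strand) that shares exon bases with Ftx, a long noncoding RNA gene of the mouse X-inactivation centre, so reads of the overlap may be split between them. Gm38020 was at 0.267, 0.475, 0.371 and 0.272 CPM in shNT, 2.85 and 2.30 CPM with sh1Ybx1, and 2.35 and 2.63 CPM with sh2Ybx1. The lowest knockdown library was several times the highest control, which gave a log2 fold change of 2.83 (SE 0.27, edgeR adjusted p = 0.00124), and Ftx as a whole rose by 1.12 (SE 0.25, adjusted p = 0.0144). Of the 75 genes outside protein-coding genes, 8 lay within another noncoding gene on the same strand, of which 5 rose and 3 were not called. They include Gm42602 within the lincRNA gene Gm42601 on chromosome 5 (5.60 ± 2.98 to 13.6 ± 2.0 CPM, log2 fold change 1.28, SE 0.36, adjusted p = 0.0303), whose call was lost when any 1 library other than shNT replicate 4 was left out (1.04 to 1.33). Gm42601 itself rose from 9.93 ± 1.37 to 20.8 ± 2.98 CPM (1.07, SE 0.17, edgeR adjusted p = 0.00452). Of the other noncoding genes that held them, 2210408F21Rik, Gm20559 and Gm10125 also rose (1.53, 1.70 and 1.05). Gm33370 was not called (-0.11), and Gm49329 and Gm20635 were not among the genes tested.
Gm42572, in intron 55 of Fryl (chromosome 5, 73041777 to 73045154, minus strand), was at 0.400, 0.475, 0.292 and 0.951 CPM in shNT, 2.68 and 1.96 CPM with sh1Ybx1, and 2.93 and 2.41 CPM with sh2Ybx1. It rose by 2.27 (SE 0.37, adjusted p = 0.00513). The host was at 139 ± 43.3 and 197 ± 19.8 CPM (0.50, adjusted p = 0.104).
Gm43088, in intron 3 of the co-chaperone gene Dnajb14 (chromosome 3, 137897144 to 137899490, plus strand), whose repeat end is printed above, was at 0.488 ± 0.335 and 1.99 ± 0.72 CPM and rose by 2.08 (SE 0.52, adjusted p = 0.0195). That call was lost without shNT replicate 1, sh1Ybx1 replicate 1 or either sh2Ybx1 library (1.69 to 2.14). On the strand opposite a coding gene, Gm37127 against Fam168b (chromosome 1, 34823525 to 34826560) rose by 2.10 (SE 0.33) and Gm38192 against Pigb, an enzyme gene of the membrane anchor glycosylphosphatidylinositol, by 2.02 (SE 0.38). Neither of these coding genes was called (adjusted p = 0.352 and 0.993).
Among the sense intronic genes, D430018E03Rik in intron 4 of the F-box gene Fbxl18 (chromosome 5, 142874077 to 142878373, minus strand) rose most of those with a mean of at least 1 CPM. It was at 0.667, 0.754, 0.398 and 0.226 CPM in shNT, 1.79 and 1.38 CPM with sh1Ybx1, and 2.02 and 1.88 CPM with sh2Ybx1, so all knockdown libraries were above the controls (1.75, SE 0.36, adjusted p = 0.0104; lost without sh1Ybx1 replicate 1, 1.65). Here the host also rose, by 0.45 (SE 0.13, adjusted p = 0.0297).
Capza1, which encodes a subunit of the capping protein of actin filaments, held Gm42659 in intron 5 (chromosome 3, 104836430 to 104838183, minus strand) and Gm42658 in intron 8 (104826330 to 104827904). Gm42659 was at 0.768, 1.03, 0.663 and 0.996 CPM in shNT, 3.58 and 2.21 CPM with sh1Ybx1, and 2.52 and 2.91 CPM with sh2Ybx1, and rose by 1.70 (SE 0.26, adjusted p = 0.00430). Gm42658 rose by 1.65 (SE 0.41, adjusted p = 0.0198), a call lost without any 1 of the knockdown libraries (1.54 to 1.73), and Capza1 was not called (-0.19, adjusted p = 0.214). Gm13053, in intron 1 of Tmem51, rose by 1.57 (SE 0.34, adjusted p = 0.0127; lost without replicate 1 of either Ybx1 hairpin, 1.35 to 1.42).

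**Figure D4:**
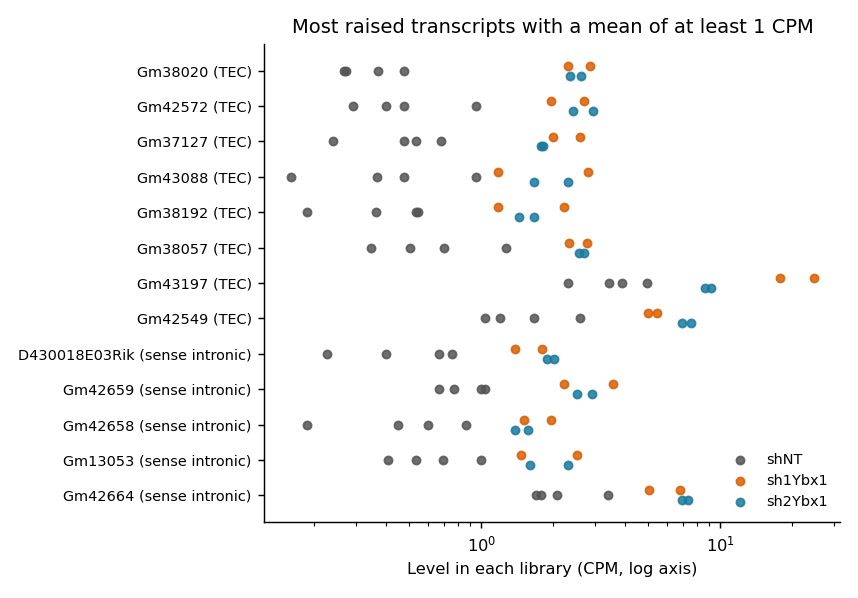
Level in each library (x axis, CPM on a log axis) of the 8 TEC and 5 sense intronic genes with the highest log2 fold change among those called, with a mean of at least 1 CPM and no overlap between groups. Points are libraries coloured by hairpin; for Gm38020 the shNT libraries lie between 0.267 and 0.475 CPM and the knockdown libraries between 2.30 and 2.85 CPM.

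The 4 genes that fell had different patterns. Gm15742, a sense intronic gene in intron 3 of Xxylt1, which encodes a xylosyltransferase that modifies Notch (chromosome 16, 30969393 to 30973518, minus strand), was at 1.33, 1.59, 2.15 and 2.08 CPM in shNT, 0.681 and 0.292 CPM with sh1Ybx1, and 0.784 and 0.426 CPM with sh2Ybx1. It fell by 1.72 on the log2 scale (SE 0.35, adjusted p = 0.00986), and it was the only one of the 4 whose tested host fell too (by 1.18, SE 0.22, adjusted p = 0.00775). On the authors' TPM its direction was the opposite (0.15 with limma on log2(TPM + 1), adjusted p = 0.921). Gm43429, in intron 6 of the metal ion importer gene Slc39a8, fell from 0.674 ± 0.156 to 0.296 ± 0.080 CPM (log2 fold change -1.22, SE 0.30, adjusted p = 0.0187), a call lost without any 1 of the knockdown libraries (-1.32 to -1.15).
Gm38345, a well expressed TEC gene outside coding genes on chromosome 19 (37432909 to 37434656, minus strand), was at 10.5, 9.44, 12.5 and 9.05 CPM in shNT, 7.87 and 8.15 CPM with sh1Ybx1, and 6.64 and 6.25 CPM with sh2Ybx1. The groups did not overlap (log2 fold change -0.53, SE 0.16, adjusted p = 0.0357), but leaving out shNT replicate 1, shNT replicate 3 or any knockdown library ended the call (-0.56 to -0.46). Gm37169, another TEC gene outside coding genes (chromosome 2, 32487988 to 32492148, plus strand), was at 4.71, 1.93, 0.292 and 9.87 CPM in shNT, 0.426 and 0.543 CPM with sh1Ybx1, and 0.165 and 0.355 CPM with sh2Ybx1. Its groups overlapped through shNT replicate 3, and the fall of 3.52 on the log2 scale (SE 0.95, adjusted p = 0.0266) lost its call without shNT replicate 1 or any knockdown library (-3.89 to -3.31). Gm10524, opposite Zfp236, was not called with both hairpins together and had a negative value (-0.63, SE 0.23, adjusted p = 0.0673). With sh2Ybx1 alone it was called lower (-1.03, edgeR adjusted p = 0.0420), and with sh1Ybx1 alone it was not called (-0.24, adjusted p = 0.574). The difference between the hairpins was not called either (0.78, edgeR adjusted p = 0.321).

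Each hairpin was also set against the same 4 shNT libraries. With sh1Ybx1 95 of the 258 genes rose and 2 fell (background 11.2% and 7.96% of all genes), with a median log2 fold change of 1.10. With sh2Ybx1 122 rose and 3 fell (background 10.4% and 9.45%), with a median of 1.25. The comparisons share their controls. Without sh1Ybx1 replicate 1 or 2 the first count was 3 or 15, and without either sh2Ybx1 library the second was 1. Such a fit leaves 1 library of a hairpin, which is assumed to vary like those of the other groups. The first count was 60 without shNT replicate 1, 60 or 54 without sh2Ybx1 replicate 1 or 2, and the second was 67 without shNT replicate 1 or either sh1Ybx1 library.
Between the hairpins edgeR called 0 of the 258 genes and 0.524% of all genes. In that test 12 of them had an unadjusted p under 0.05, against 14.0% of all genes. DESeq2 called 2 of 259, while over all 13588 genes it called 546 higher and 248 lower. The nearest to an edgeR call was Gm43197, a TEC gene on chromosome 6 (3336772 to 3339354, minus strand). It lies within the processed transcript gene Gm20559 on the same strand. With both hairpins against shNT, Gm20559 rose by 1.70 (10.1 ± 2.85 to 36.4 ± 19.0 CPM, SE 0.23, edgeR adjusted p = 0.00288). Gm43197 was at 3.44, 3.88, 4.96 and 2.31 CPM in shNT, 24.8 and 17.9 CPM with sh1Ybx1, and 9.16 and 8.66 CPM with sh2Ybx1. Both hairpins were above shNT and sh1Ybx1 above sh2Ybx1, with log2 fold changes of 2.54 and 1.28 and a difference of 1.26 (SE 0.34, adjusted p = 0.132). Gm37084 in intron 1 of the kinase gene Mapkapk2 and Gm19721 in intron 1 of the G protein gene Gnai2 had differences of 1.35 and 0.98 (adjusted p = 0.196 and 0.230). The largest difference the other way was that of the sense intronic gene Gm15535, at -2.05 (SE 0.59, adjusted p = 0.153).

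In the table that the authors deposited, 149 of the 259 genes were higher and 2 lower at an adjusted p under 0.05, where 14.5% of all listed genes were higher and 11.2% lower. The authors' splicing table gave another readout of the hosts' introns, taken from the same libraries, as a delta PSI (change in the share of transcripts that keep the intron) per retained intron event, without stating which group was subtracted. Of 121 hosts, 22 (18.2%) had a retained intron event in it, against 16.7% of listed protein-coding genes. At least 1 event had a positive delta PSI at an unadjusted p under 0.05 in 14 of these 22 hosts (63.6%) and a negative one in 0 of 22, against 33.8% and 0.464% of all 1938 genes with an event. This difference was not tested.

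Lists of genes that make, cut, export or destroy such RNA were read beside these results. They were chosen with earlier results of these data known, and 14.8% of all genes were called higher and 14.2% lower in the same comparison. Of 21 cleavage, polyadenylation and termination genes 10 fell and 11 were not called, with a median log2 fold change of -0.36 (-0.004 over all genes), among them Fip1l1 (135 ± 24.4 to 81.3 ± 7.42 CPM, -0.73), a subunit of the polyadenylation complex, Cpsf2 (-0.56), of the same complex, and Scaf8 (-0.64), which acts at transcription termination. Of 16 genes for the U1 particle, branch point recognition and lariat turnover 5 fell and 11 were not called, with a median of -0.29, including Snrpa, a U1 protein (-0.72), Sf3b2 of the branch point complex (-0.46) and Tfip11, which helps release the excised lariat (-0.43). Of 17 cap binding, export and surveillance genes 4 fell and 13 were not called (median -0.09), with Ncbp1, the large cap-binding subunit, at -0.63, the nuclear pore protein gene Tpr at -0.70 and Ncbp3 at -0.51.
Among 20 nuclear exosome genes, which encode the machine that degrades nuclear RNA and its adaptors, 1 rose, 5 fell and 14 were not called, with a median of 0.02. Zcchc7, of a polyadenylating adaptor complex, rose by 0.85, while Papd7, a noncanonical poly(A) polymerase, and Mphosph6, an exosome cofactor, fell by 0.55 and 0.37. The integrator complex, which ends many short noncoding transcripts, had 2 of 14 genes lower, a share near that of all genes, and 12 not called (Ints9, -0.77, and Ints3, -0.50; median -0.22). Of 5 tested RNAs known to stay in the nucleus, Kcnq1ot1 (1.45, SE 0.33) and Malat1 (2.06, SE 0.53) rose and 3 were not called.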

How the data were processed

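Raw gene counts, as the authors deposited them, were read for 4 shNT, 2 sh1Ybx1 and 2 sh2Ybx1 libraries. STAR, RSEM, featureCounts and limma, and the builds mm9 and GRCm38, are named in the submitters' processing notes, without versions or roles. Whether counting used strand is not given. The authors' deposited table also holds per gene a log2 fold change with raw and adjusted p-values, and the authors deposited TPM per gene. Their splicing and exon tables, per the file headers, hold delta PSI and p-values per event, and counts and log2 fold changes per exon bin.

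Counts of 13552 of 13588 genes that passed filterByExpr were tested with edgeR 4.0.16 in R 4.3.3 (TMM scaling, quasi-likelihood test, 1 fit of 3 group means over 8 libraries, Benjamini-Hochberg adjusted p under 0.05 over all genes). The shNT mean was compared with the mean of both hairpins and with each hairpin, and the hairpins with each other. Levels are CPM after TMM scaling; the standard error, which is approximate, divides the log2 fold change by the root of the F statistic. The scripts were tested on simulated counts. Of the 259 genes, Gm10517 did not pass the filter, and Gm37699 and Gm15869 have no entry in GENCODE release 21.

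The count table holds no coordinates, so positions, strands, hosts, intron numbers and transcript ends were taken from GENCODE release 21 (GRCm38), in which 78.2% of the authors' 4479 retained intron events had both ends within 1 base of an exon boundary. Named genes were the 6 TEC and 4 sense intronic genes of highest mean CPM, the 8 and 5 with the highest log2 fold change among those called, without overlap of groups and with a mean of at least 1 CPM, the genes called lower, the 4 of smallest p between hairpins and the 4 best expressed not called, with up to 3 per list; a gene that this rule names and a marker are not reported here. Genes and lists were chosen with earlier results of these data known. Other scalings and filters, DESeq2 1.42.0, limma 3.58.1 on TPM, a replicate block and leaving out each library were the alternatives.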

Additional observations from a re-analysis of the deposited data

Results flagged for a closer look

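Gm15535, a 4-exon sense intronic gene on chromosome 3 (85556046 to 85573945, minus strand), was at 0.501, 0.615 and 0.504 CPM in shNT replicates 1 to 3 and at 1.45 CPM in shNT replicate 4, which stood apart from the other controls. It was at 0.340 and 0.501 CPM in sh1Ybx1 and 1.90 and 1.63 CPM in sh2Ybx1, so the sh2Ybx1 libraries were above all the others and the sh1Ybx1 libraries at the lower end of shNT. Of 32 sets of 4 shNT values screened in this way it was the only 1, and chance alone flags about 1 in 20.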

How the results depend on the processing

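Of the 258 genes, the 143 called higher with both hairpins became 70 (of 119 tested) with a mean of at least 1 CPM, 9 with limma on log2(TPM + 1) and 6 on log2(TPM + 0.1), and 53 to 166 with each library left out in turn. The 4 called lower became 7 with the replicate block, 0 on either TPM scale, and 1 to 7 with a library left out. For sh1Ybx1 the 95 higher became 44 with a mean of at least 1 CPM, 4 and 5 on TPM with a pseudocount of 1 and 0.1, 51 with 2 groups only and 3 to 142 with a library left out. Its 2 lower became 1, 0, 0 and 1 in the same settings, 5 with the block and 0 to 4 with a library left out. For sh2Ybx1 the 122 higher became 62, 1, 4, 67 and 1 to 162 in these settings, and the 3 lower became 1 when scaled on protein-coding genes, 1 with the level minimum, 5 with the block, 0 on either TPM scale, 0 with 2 groups only and 0 to 5 with a library left out. Between hairpins the 0 called became 2 with DESeq2, 11 with the block and 1 on either TPM scale. The number was 40 of 253 tested with 2 groups only and 0 to 5 with an shNT library left out. Over all genes, 2 groups only called 2959 higher and 2661 lower of 13258 between hairpins. The block called 1775 and 1285 of 13552, and DESeq2 546 and 248 of 13588. The summed levels kept their direction in each setting run. Over all genes, the 2001 called higher with both hairpins became 1594 of 11695 with the level minimum. They became 156 and 144 of 13512 on TPM with a pseudocount of 1 and 0.1. With 2 groups only, the 1522 higher with sh1Ybx1 became 818 and the 1411 with sh2Ybx1 became 752. The cause of these shifts was not tested.

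Replicate numbers were tried as a block, with which 166 genes were called higher for both hairpins in place of 143. Over all genes the number went from 2001 to 3287. Numbers 3 and 4 occur only in shNT, so the block fits those libraries exactly and the comparison rests on shNT replicates 1 and 2. Leaving out shNT replicate 4 alone also gave 166, so these counts cannot show an effect of pairing. Deviations of same-numbered libraries from their group means had correlations of -0.012 to 0.197. In a group of 2 libraries the deviations mirror each other, so the value between the hairpins is 0.143 for numbers 1 and 2 alike. Libraries with different numbers were not compared. These values therefore cannot show whether same-numbered libraries share more than a number. Numbers were those of the sample titles; the descriptions number the sh2Ybx1 libraries 2 and 3, and a block on those was not run.

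Signs reversed for Gm42427 on TPM (3.84e-05 and 0.0016 with a pseudocount of 1 and 0.1), for Gm42547 with the block (-0.0044), for Gm15742 on TPM (0.15 and 0.75) and for Gm15535 on TPM (-0.48 and -1.20). Depth limits these results: the genes had a median of 23 counts per library, and 140 of the 258 were under 1 CPM.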
